A study of Rattus norvegicus with 47 samples.

Results

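The genes described here encode the protein machinery of oxidative phosphorylation, as measured in the whole blood of rats after predator-scent stress. They were taken by symbol: every probe whose gene symbol began with Nduf (complex I), Sdha, Sdhb, Sdhc or Sdhd (complex II), Uqcr (complex III), Cox4 to Cox8 (complex IV) or Atp5 (complex V). The rule found 71 genes, with 1 probe each, among the 13337 gene symbols of the array. Of these, 37 fell in complex I, 6 in complex II, 4 in complex III, 11 in complex IV and 13 in complex V. By their names, 57 were subunits, 9 were assembly factors that help to build a complex without staying in it (symbols in Ndufaf and Sdhaf), 3 were tissue isoforms, 1 was the related protein Cox7a2l and 1 carried a pseudogene symbol.

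The animals were adult Sprague Dawley rats of both sexes, with no genetic change given in the labels. Exposed rats had met the scent of a predator and were classed by the submitters, from their behaviour, as showing a minimal or an extreme response; control rats were unexposed but also went through the behavioural test. Females were 7 controls (6 with a usable array), 8 of minimal and 8 of extreme response, and males were 8 in each of the same classes. The time between exposure and blood sampling is not given in the sources used here. Blood was collected into PAXgene tubes, which lyse cells and stabilize RNA, and globin messenger RNA was depleted. Each sample had 1 Illumina bead array, and the errors given are those between arrays, each treated as a separate rat. Some rat numbers in the titles of male controls recur in titles of exposed males of either class. The labels do not say whether these are the same animals. The male and female rats carried separate series of rat numbers, and sex and cohort cannot be told apart.

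Oxidative phosphorylation makes most of the ATP of resting cells. Electrons from NADH enter at complex I and those from succinate at complex II, pass through complex III and cytochrome c to oxygen at complex IV, and the proton gradient built on the way drives ATP synthase, complex V. Most subunits are encoded in the nucleus, apart from a small mitochondrial set that was not analysed here. In blood, lymphocytes, monocytes, platelets and immature red cells carry mitochondria, mature mammalian red cells have lost them, and neutrophils depend largely on glycolysis.

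Nuclear genes of these complexes often share promoter elements for NRF-1, ETS-family factors (NRF-2/GABP), YY1 and Sp1, so the promoters of the genes were searched for 4 such motifs. A promoter of 300 bases (250 before and 50 after the gene's start) was present for 62 of the 71 genes in the RefSeq table of build GRCr8. The motifs, on either strand, were GCGCNTGCG for NRF-1, CCGGAAG for ETS, AAGATGGC for YY1 and GGGGCGGGG for Sp1. The NRF-1 motif stood in 19 of the 62 promoters (30.6%, against 5.75% of all 33469 promoters in the table), the ETS motif in 19 (30.6%, against 8.75%), the YY1 motif in 10 (16.1%, against 3.17%) and the Sp1 motif in 4 (6.45%, against 9.73%). A match says only that these letters lie in the window.

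The 6 promoters printed here belong to genes on which the male results below turn: Ndufs7, Ndufs8, Ndufb7, Cox5b and Cox4i1, which were lower in males of minimal response than in male controls, and Sdhd, which was higher. Each is written 5′ to 3′ on the gene's own strand, with capitals marking matches to the 4 motifs. The windows lie, in order, with Ndufs7 at chr7:10110449-10110748 on the minus strand, Ndufs8 at chr1:210573649-210573948 on the minus strand, Ndufb7 at chr19:41477242-41477541 on the minus strand, Cox5b at chr9:46417587-46417886 on the plus strand, Cox4i1 at chr19:65630133-65630432 on the plus strand and Sdhd at chr8:59850592-59850891 on the minus strand.
Ndufs7: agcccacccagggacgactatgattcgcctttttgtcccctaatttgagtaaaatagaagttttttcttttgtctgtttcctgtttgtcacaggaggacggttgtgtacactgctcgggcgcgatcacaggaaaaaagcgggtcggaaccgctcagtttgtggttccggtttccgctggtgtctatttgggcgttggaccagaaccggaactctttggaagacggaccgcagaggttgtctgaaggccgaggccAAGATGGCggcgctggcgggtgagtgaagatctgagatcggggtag
Ndufs8: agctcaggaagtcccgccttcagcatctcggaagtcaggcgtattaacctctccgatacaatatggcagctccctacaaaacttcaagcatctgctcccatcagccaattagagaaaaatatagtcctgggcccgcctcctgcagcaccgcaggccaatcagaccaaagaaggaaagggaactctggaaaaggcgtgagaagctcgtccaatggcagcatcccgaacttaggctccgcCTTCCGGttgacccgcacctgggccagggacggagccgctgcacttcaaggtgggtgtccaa
Ndufb7: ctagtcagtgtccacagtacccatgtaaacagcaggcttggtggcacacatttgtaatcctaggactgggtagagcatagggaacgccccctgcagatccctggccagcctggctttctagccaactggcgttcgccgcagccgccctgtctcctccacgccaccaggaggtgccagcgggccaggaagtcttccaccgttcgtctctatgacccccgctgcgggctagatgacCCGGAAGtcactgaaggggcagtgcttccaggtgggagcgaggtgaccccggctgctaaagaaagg
Cox5b: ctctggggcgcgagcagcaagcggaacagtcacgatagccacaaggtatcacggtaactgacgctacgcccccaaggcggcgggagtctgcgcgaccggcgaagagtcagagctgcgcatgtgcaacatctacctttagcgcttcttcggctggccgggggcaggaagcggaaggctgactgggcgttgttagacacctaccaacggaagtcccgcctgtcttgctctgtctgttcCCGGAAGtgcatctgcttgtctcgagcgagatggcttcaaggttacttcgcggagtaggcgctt
Cox4i1: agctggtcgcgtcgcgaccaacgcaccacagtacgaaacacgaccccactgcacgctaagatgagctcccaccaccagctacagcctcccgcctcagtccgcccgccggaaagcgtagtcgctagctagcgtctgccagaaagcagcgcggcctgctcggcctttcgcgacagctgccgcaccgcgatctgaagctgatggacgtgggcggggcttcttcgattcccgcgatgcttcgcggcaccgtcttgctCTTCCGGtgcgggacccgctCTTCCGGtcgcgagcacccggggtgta
Sdhd: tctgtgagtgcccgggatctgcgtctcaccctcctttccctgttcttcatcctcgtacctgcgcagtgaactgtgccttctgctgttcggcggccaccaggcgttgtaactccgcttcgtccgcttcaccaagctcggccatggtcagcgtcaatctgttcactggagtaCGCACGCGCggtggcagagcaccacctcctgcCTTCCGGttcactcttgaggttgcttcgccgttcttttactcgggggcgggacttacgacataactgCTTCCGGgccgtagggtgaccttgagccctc
In Ndufs7 the capitals mark 1 YY1 motif. In Ndufs8, Ndufb7, Cox5b and Cox4i1 they mark ETS motifs, 1 in each of the first 3 and 2 in Cox4i1. The Sdhd window held 1 NRF-1 and 2 ETS motifs. The windows of Ndufv1, Uqcrfs1 and Cox5a, which also enter the results, held none of the 4.

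Values are log2 intensities after background correction and quantile normalization over 46 arrays. Testing was limited to probes with a detection p-value below 0.05 on 7 or more arrays, which kept 61 of the 71 genes and 9416 of all 22523 probes. Of the 61, 52 were detected on every array, among them Cox5b and Cox4i1, a pair of nuclear-encoded subunits of cytochrome c oxidase that served as markers of the gene set. The tested genes were 32 of complex I, 5 of complex II, 4 of complex III, 8 of complex IV and 12 of complex V. Differences come from limma's moderated test over all 9416 probes, and a gene was called higher or lower when its adjusted p (Benjamini-Hochberg over all tested probes) was below 0.05. In whole blood, fewer cells of a type and less RNA per cell cannot be told apart.

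The 10 genes below the filter were spread over 4 complexes. Ndufs4, Ndufaf2 and Atp5mk were detected on 0 of 46 arrays, Ndufa7, Sdhaf3 and Cox8c on 1 each, Cox8b on 3, Cox6c on 4, and Ndufb4 and Ndufs6-ps1 on 6 each. Cox8c is known as the testis isoform and Cox8b, with Cox6a2, as a heart and skeletal muscle isoform of complex IV. Cox6a2 passed the filter through 13 arrays, with detection in 0 of 6 female controls, 5 of 8 females of minimal and 3 of 8 of extreme response, and in 3, 1 and 1 of 8 males of the same classes. Ndufs4 and Ndufb4 encode subunits found wherever complex I is made, and their probes give no level here.

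A few arrays stood apart on genes outside the set. Female controls 1, 3, 4 and 5 had a mean platelet marker level (8 genes) of 8.13, 7.15, 7.73 and 8.87 log2 units, against 10.76 and 10.42 in female controls 6 and 7 and 9.65 to 11.39 in the other 40 arrays. All 8 platelet markers were higher in exposed than in control females, with a median log2 difference of 1.87, and no platelet marker was called in males. The same 4 arrays stood apart on immediate early genes, which cells switch on quickly when stimulated: their mean level over 5 genes was 9.69, 9.84, 9.55 and 9.29, against 6.79 and 6.98 in female controls 6 and 7 and 6.11 to 7.6 on the other 40 arrays. All 5 of these genes were lower in exposed than in control females, with a median of -2.14. Of 5 muscle genes, Ckm and Acta1 were higher in exposed females (2.76 ± 0.65 and 2.97 ± 0.68, adjusted p = 0.00349 and 0.00256, limma). Here every female control was low, with a mean level over the 5 genes of 4.54 to 4.99. In exposed males Ckm and Tnnt3 were called lower, and the median difference of the 5 genes was -1.3. Male control 2 had a mean skeletal muscle marker level (5 genes) of 10.57, against 4.54 to 7.41 on the other 45 arrays. Raw brightness also moved with the groups: the 95th percentile of intensity had a group median of 329 among female controls, 590 with minimal and 440 with extreme response. Among males it was 450 for controls, 344 for minimal and 545 for extreme response. The part of these differences in the results below was not tested beyond the values given with and without those arrays.

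**Figure D1:**
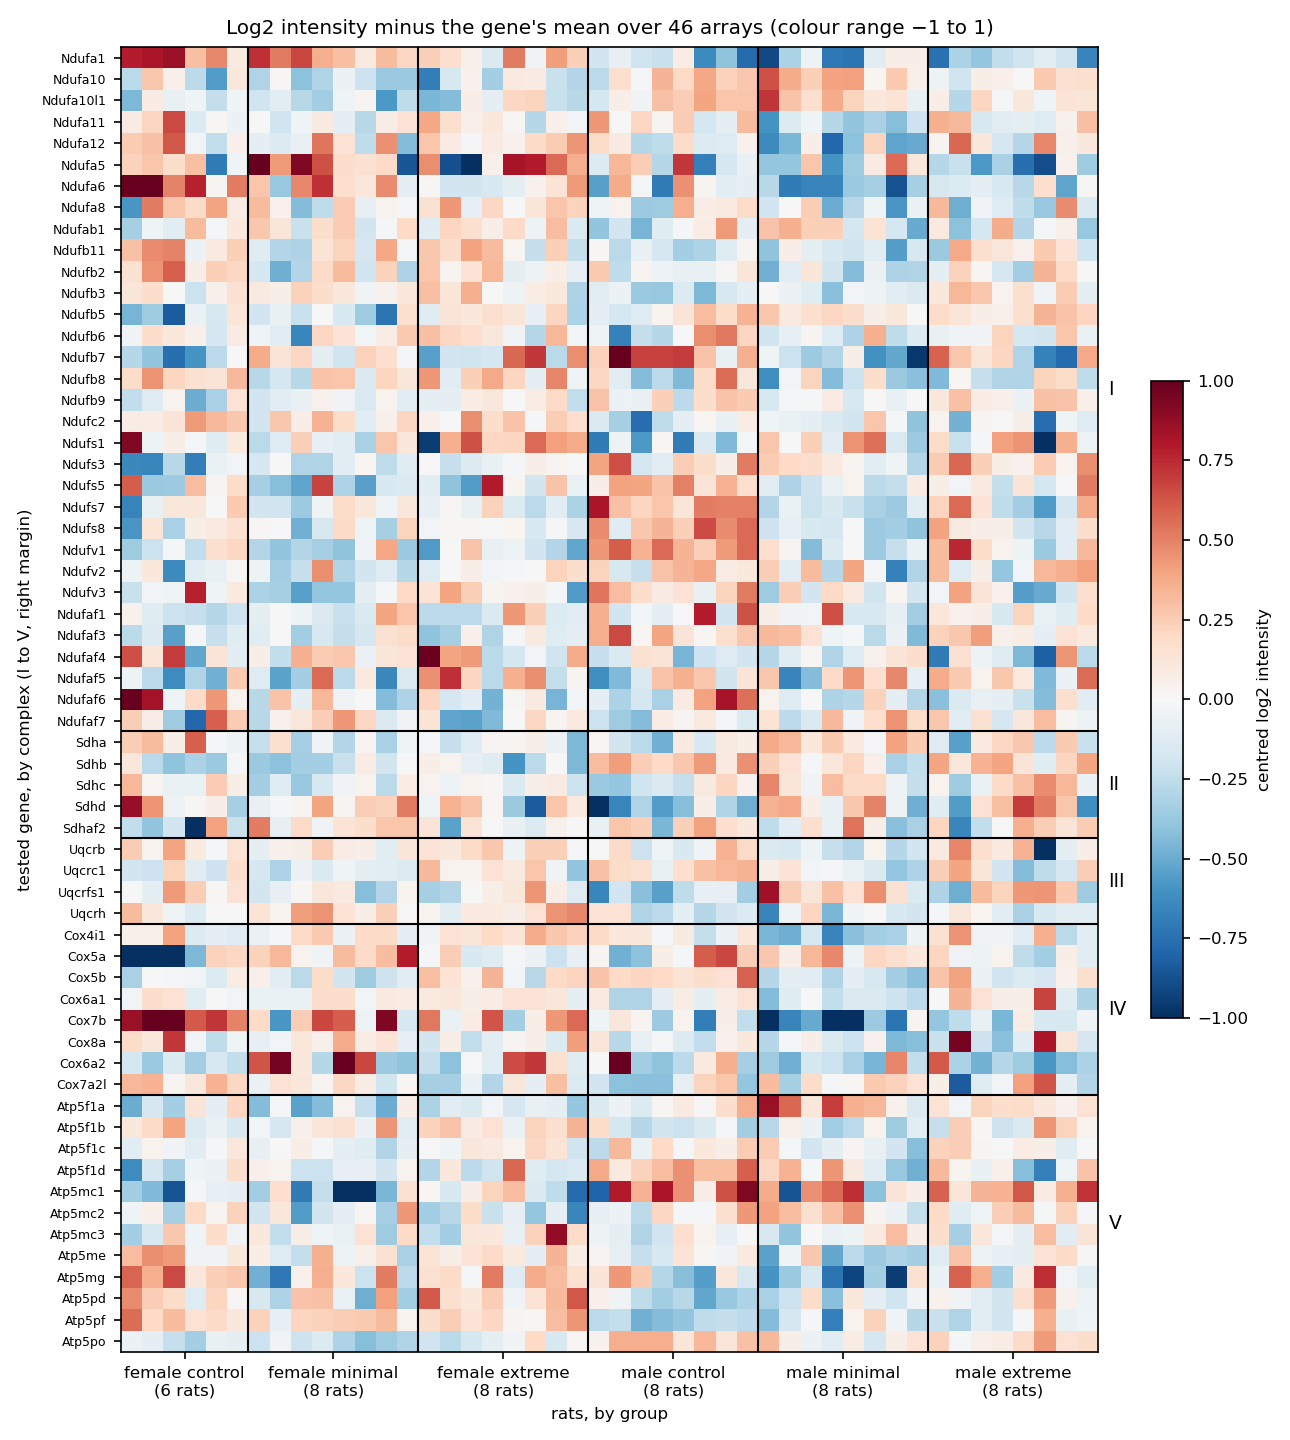
Log2 intensity of the 61 tested genes (rows, by complex) on the 46 arrays (columns, by group), each gene centred on its mean over the arrays; red is above and blue below that mean. Cox5a is darkest blue on the first 3 female controls shown. Ndufs7, Ndufs8 and Ndufv1 are red across most male controls. Across males of minimal response Ndufs7 and Ndufs8 are blue or near their mean, and Ndufv1 is blue in most but not all.

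Males of minimal response differed from male controls in 13 of the 61 genes, 3 higher and 10 lower. Over all tested probes 8.11% were called higher and 6.71% lower, so the share of these genes called higher (4.92%) was below that background and the share called lower (16.4%) was above it. The median difference over the 61 genes was -0.16 log2 units, against -0.01 over all probes, and 40 of the 61 differences were below 0. All 13 called genes were among the 52 tested subunits. By complex, 6 of 32 genes of complex I, 1 of 4 of complex III and 3 of 8 of complex IV were lower, 2 of 5 of complex II and 1 of 4 of complex III were higher, and 0 of 12 of complex V were called.

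The lower genes of complex I included subunits of its electron-carrying arm. Ndufs7, an iron-sulfur subunit next to the ubiquinone site, had levels of 9.26 to 9.95 (median 9.54) in 8 male controls and 8.77 to 9.07 (median 8.92) in 8 males of minimal response. Every minimal-response rat lay below every control rat, and the log2 difference was -0.63 ± 0.13 (SE; adjusted p = 0.000751, limma), a level 1.54-fold lower. Ndufs8, another iron-sulfur subunit, ran from 8.42 to 9.19 (median 8.94) in controls and from 8.14 to 8.54 (median 8.35) in minimal response. These groups overlapped at their edges, with a difference of -0.57 ± 0.11 (adjusted p = 0.000496, limma) and 8 of 8 rats below the control mean.

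Ndufv1, the subunit that binds NADH and the flavin, ran from 7.5 to 7.87 (median 7.7) in male controls and from 6.83 to 7.43 (median 7.16) in minimal response. The groups did not overlap, and the difference was -0.57 ± 0.13 (adjusted p = 0.00222, limma). The accessory subunit Ndufb7 showed the widest gap of the set, with levels of 7.26 to 8.69 (median 7.85) in controls and 6.37 to 7.39 (median 7.01) in minimal response. Its difference was -0.89 ± 0.19 (adjusted p = 0.000969, limma), 1.86-fold lower, and the groups overlapped. The accessory subunits Ndufa6 and Ndufa11, named here after their values were seen, were lower by -0.45 ± 0.16 (adjusted p = 0.0445, limma) and -0.42 ± 0.11 (adjusted p = 0.00682, limma). Ndufs1, the largest iron-sulfur subunit of the same arm, had levels of 5.6 to 6.32 in controls and 5.94 to 6.85 in minimal response, and its difference of 0.44 ± 0.21 did not pass (adjusted p = 0.171, limma).

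Complex IV held both markers of the set. Cox5b, a zinc-binding subunit of cytochrome c oxidase, ran from 10.05 to 10.51 (median 10.12) in male controls and from 9.5 to 9.83 (median 9.69) in males of minimal response. No rat of one group reached the other, and the difference was -0.47 ± 0.10 (adjusted p = 0.0011, limma). Cox4i1, the ubiquitous form of subunit 4, ran from 11.71 to 12.14 (median 12.04) in controls and from 11.28 to 11.9 (median 11.57) in minimal response, with a difference of -0.40 ± 0.10 (adjusted p = 0.00533, limma). Cox7b, a small structural subunit, was lower by -0.65 ± 0.19 (adjusted p = 0.0129, limma) with overlapping groups of 10.7 to 11.51 and 9.89 to 11.42. Of complex III, Uqcrc1, a core protein of the complex, was lower by -0.31 ± 0.11 (adjusted p = 0.0427, limma).

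Ndufs7, Ndufv1 and Cox5b were the 3 genes of the set (4.92% of 61) whose minimal-response males all lay below the male controls, against 0.743% of all tested probes. No gene of the set had all minimal-response males above the controls, which 1.37% of all probes did.

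The higher genes sat in complexes II and III. Sdhd, a membrane anchor of succinate dehydrogenase, ran from 6.14 to 7.27 (median 6.74) in male controls and from 6.71 to 7.7 (median 7.37) in minimal response. The ranges overlapped, and the difference was 0.58 ± 0.18 (adjusted p = 0.0209, limma), with 7 of 8 rats above the control mean. Sdha, the flavoprotein that oxidizes succinate, ran from 7.12 to 7.69 (median 7.53) in controls and from 7.59 to 8 (median 7.86) in minimal response, a difference of 0.33 ± 0.11 (adjusted p = 0.0396, limma). Uqcrfs1, the Rieske iron-sulfur protein of complex III, ran from 8.38 to 8.95 (median 8.73) in controls and from 8.89 to 9.88 (median 9.23) in minimal response, with a difference of 0.59 ± 0.13 (adjusted p = 0.00237, limma). Leaving out single arrays ended the call of Sdha in 9 of 46 omissions (highest adjusted p = 0.104, limma). It ended that of Sdhd in 2 and never that of Uqcrfs1.

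The median difference of the 5 tested genes of complex II was 0.25, against -0.17 in complex I, -0.12 in complex III, -0.27 in complex IV and -0.09 in complex V. These signs were the same under 75th-percentile scaling, which gave 0.1 for complex II, -0.24, -0.3, -0.38 and -0.28 for the others. Within complex II the members did not move alike, since Sdhb, its iron-sulfur subunit, had a median of 9.09 in male controls and 8.88 in minimal response, and its difference was -0.28 ± 0.11 (adjusted p = 0.0665, limma).

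**Figure D2:**
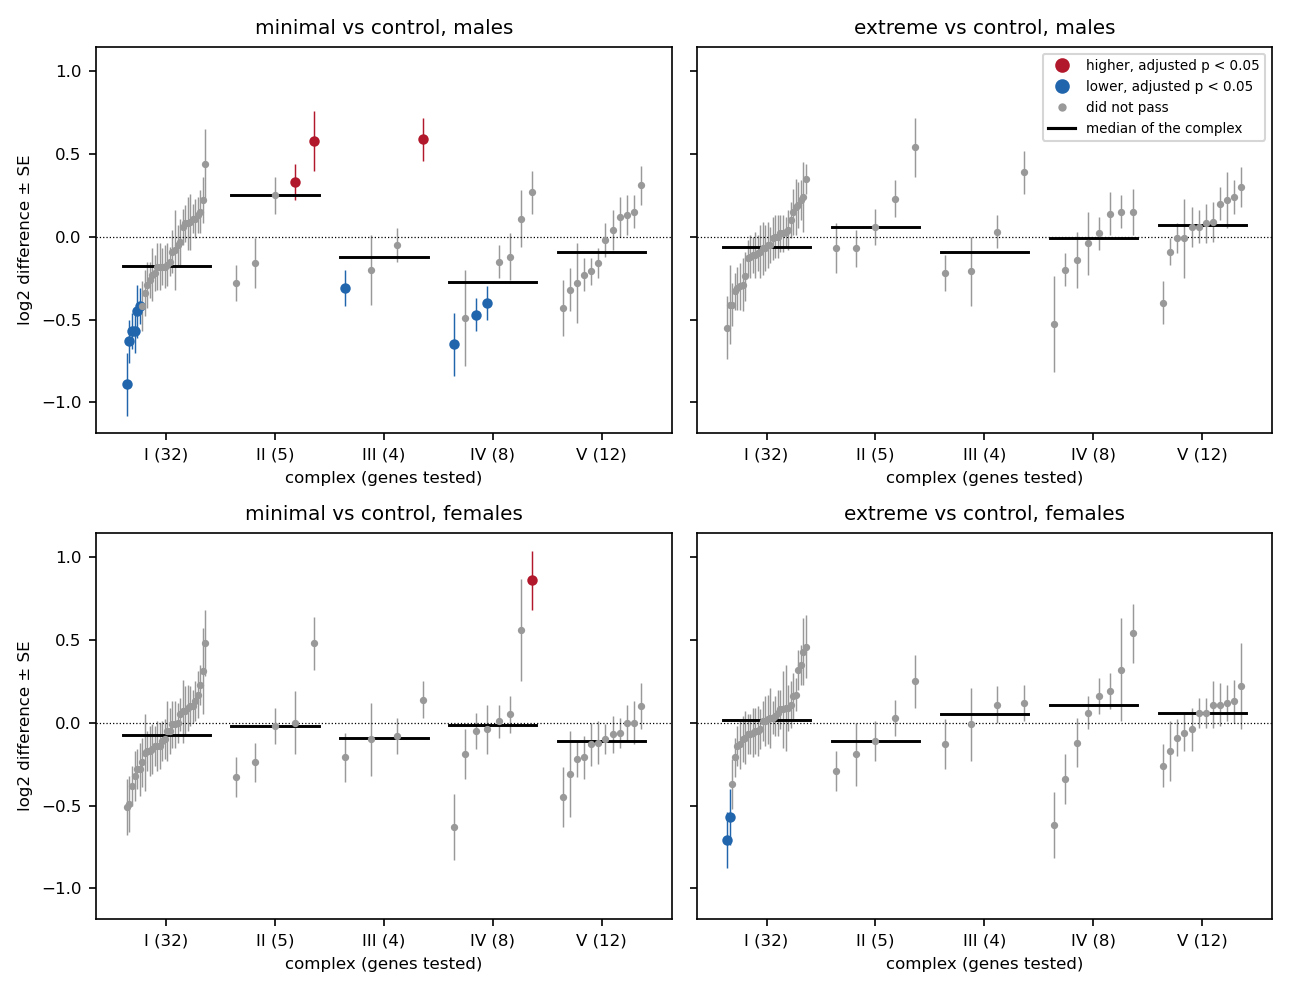
Log2 difference from the controls of the same sex, with its standard error, for the 61 tested genes grouped by complex; red and blue points passed an adjusted p of 0.05 (higher and lower), grey points did not, and black bars are medians of the complex. Males of minimal response show 10 blue and 3 red points, males of extreme response none.

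The male calls depended on how the arrays were scaled and on which arrays entered the fit. With each array scaled by its 75th percentile in place of quantile normalization, 6 of the 13 calls remained (Ndufb7, Ndufs7, Ndufs8, Ndufv1, Cox4i1 and Cox7b), all lower. None of the 3 higher genes passed, although each kept its sign. Calls over all probes also fell, from 764 higher and 632 lower to 276 and 268. When the array without signal entered the fit, 2 remained (Ndufb7 and Ndufs8), and over all probes 192 were called higher and 125 lower. The median difference of the set stayed at -0.16 with that array. Without male control 2, the array high in muscle markers, 10 of the 61 genes were called, and Ndufa6, Sdha and Uqcrc1 no longer passed (adjusted p = 0.106, 0.0642 and 0.0549, limma).

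Other values moved with this comparison. Among blood cell markers, the neutrophil genes Cxcr2 and Mmp8 were higher by 0.61 ± 0.21 and 1 ± 0.23 and Ncf1 lower by -0.61 ± 0.15, of 8 neutrophil genes tested, and the B cell gene Blk was lower by -0.44 ± 0.16 (adjusted p = 0.0391, 0.00267, 0.00461 and 0.0498, limma). The mean log2 level of 3 B cell markers ran from 7.24 to 8.09 in male controls and from 6.86 to 7.79 in minimal response. The platelet list (8 genes, 0 called) ran from 9.8 to 10.77 and from 9.86 to 10.78, and the T cell list (7 genes, with Cd8a called higher, 0.46 ± 0.15, adjusted p = 0.0311, limma) from 9.56 to 9.96 and from 9.53 to 9.94. The T cell list as a whole went the other way from Cd8a. Its median was 9.84 in male controls and 9.62 in minimal response, and the median difference of its 7 genes was -0.18. The erythroid list (8 genes) ran from 9.98 to 11.24 and from 10.38 to 11.04, with Ahsp called lower (-0.51 ± 0.18, adjusted p = 0.0404, limma). Of 2 monocyte genes 0 were called, and of 5 immediate early genes Dusp1 was higher (1.62 ± 0.29, adjusted p = 0.00025, limma). The muscle gene Tnnt3 was lower by -1.27 ± 0.43 (adjusted p = 0.0378, limma), with a list range of 5.16 to 10.57 in controls and 4.66 to 6.37 in minimal response. The part of these markers in the lower levels of Ndufs7, Cox5b and the others was not tested.

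Males of extreme response shared their controls with the comparison above, and no gene of the set was called in either direction (0 of 61). Of all probes 0% were called in this comparison, although 1437 (15.3%) had an unadjusted p below 0.05, as did 14 of the 61 genes (23%). With array weights 1 gene of the set, Ndufb3, was called higher, among 149 calls over all probes. The median difference over the set was -0.01. Ndufs7 ran from 8.57 to 9.7 (median 9.11) in extreme response, reaching both the control and the minimal-response range, with a difference from controls of -0.41 ± 0.13 (adjusted p = 0.108, limma). Ndufb3, an accessory subunit of complex I, had the smallest p, with 8.35 to 8.78 (median 8.58) in extreme response against 8 to 8.39 (median 8.3) in controls and a difference of 0.35 ± 0.09 (adjusted p = 0.0709, limma). Sdhd had a difference of 0.54 ± 0.18 (adjusted p = 0.126, limma) with a range of 6.59 to 7.9. The markers had differences of -0.20 ± 0.10 for Cox5b (adjusted p = 0.317, limma) and 0.02 ± 0.10 for Cox4i1 (adjusted p = 0.963, limma), and the 95% interval of the latter was -0.19 to 0.22. Single arrays mattered here: leaving out male extreme 1, 2 or 8 gave 1, 4 and 3 calls. Over all probes, single omissions gave 0 to 302 calls.

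**Figure D3:**
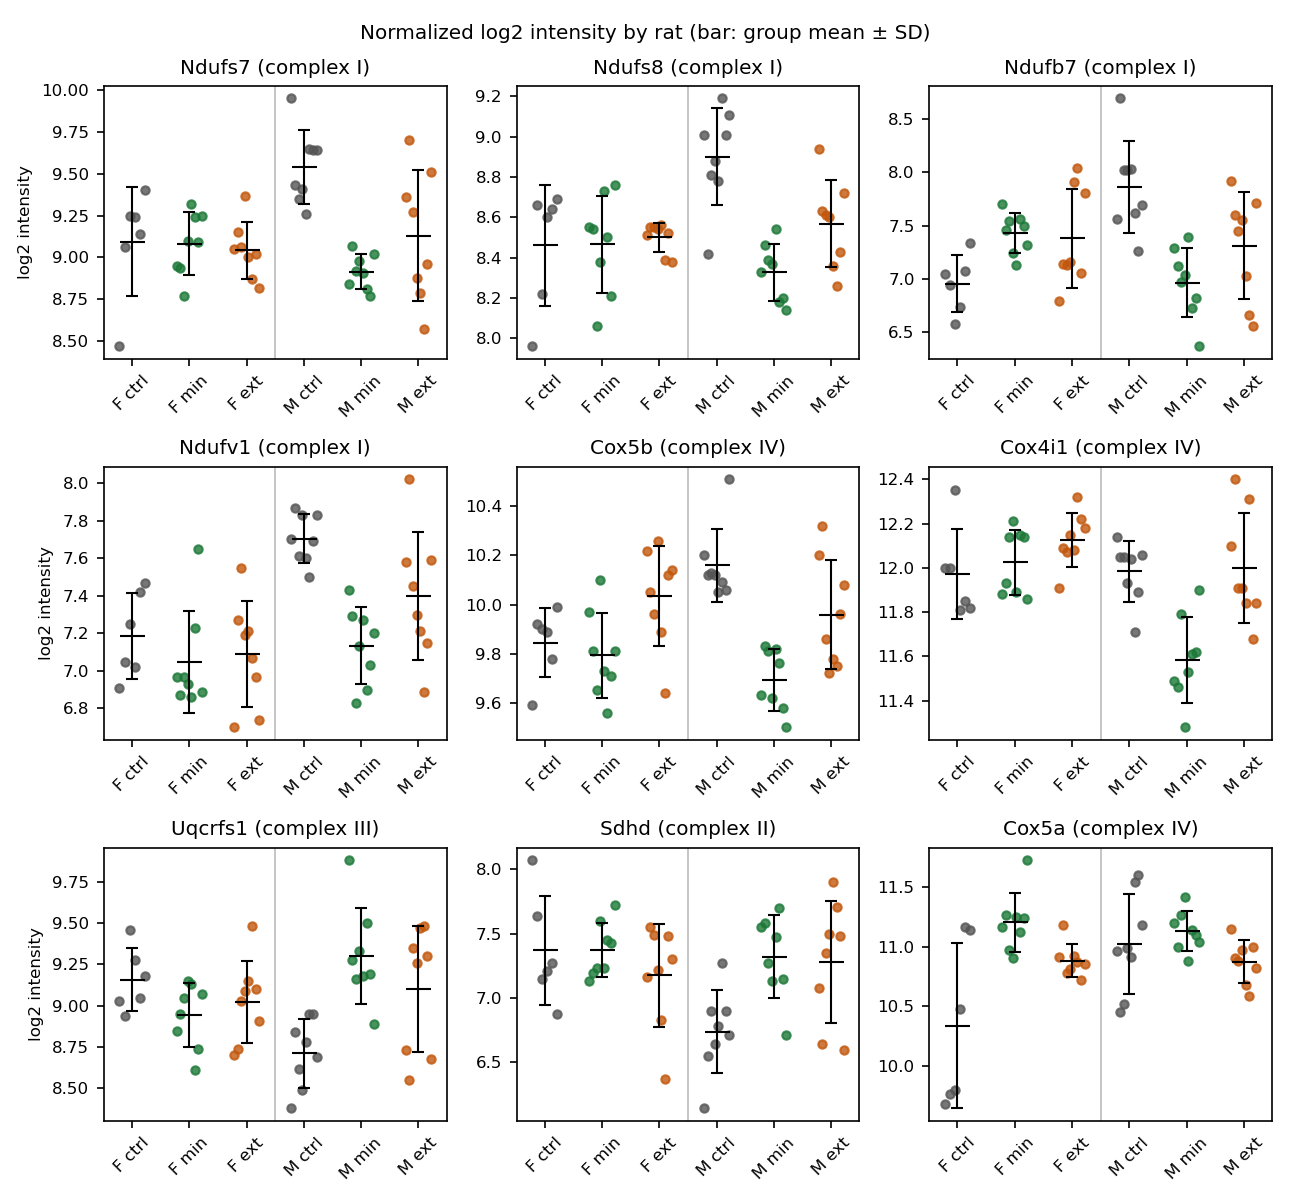
Normalized log2 intensity of 9 genes in each rat (points) by sex (F, M) and group (ctrl, control; min, minimal response; ext, extreme response), with the group mean and SD (black). Male controls lie above males of minimal response for Ndufs7, Ndufv1 and Cox5b without overlap, and the female control points of Cox5a split between 9.68 to 10.48 and 11.14 to 11.16.

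The direct comparison of extreme with minimal response in males asked how the set differed with behaviour among exposed rats. It gave 0 called genes in the set, and 0.138% of all probes (13) were called. With an unadjusted p below 0.05 were 18 of the 61 genes (29.5%), against 12.6% of all probes, and 39 of the 61 differences were above 0, with a median of 0.09 for the set (0.26 under 75th-percentile scaling). Cox4i1 came nearest to the threshold. It ran from 11.68 to 12.4 (median 11.91) in extreme and from 11.28 to 11.9 (median 11.57) in minimal response, a difference of 0.41 ± 0.10 (adjusted p = 0.067, limma) with 8 of 8 rats of extreme response above the minimal-response mean. It passed with the deposited log2 values (adjusted p = 0.0306, limma), with an offset of 50 (0.0344) and without 4 female controls (0.047).

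The next genes by p were Atp5mg and Ndufa12. Atp5mg, a subunit of the membrane part of ATP synthase, ran from 9.55 to 10.63 in extreme and from 8.95 to 10.04 in minimal response, a difference of 0.64 ± 0.17 (adjusted p = 0.0834, limma). Ndufa12, an accessory subunit of complex I, ran from 9.88 to 10.74 and from 9.38 to 10.39, a difference of 0.49 ± 0.14 (adjusted p = 0.113, limma). Leaving out male minimal 8 or male extreme 4, 5 or 7 gave 2, 1, 3 and 1 calls. Over all probes, single omissions gave 0 to 92 calls in this comparison.

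With both response classes pooled as exposed males, 9 of 61 genes were called, 3 higher and 6 lower. All probes were called higher in 6.23% and lower in 4.97%, against 4.92% and 9.84% of the set. Lower were Ndufb7 (-0.72 ± 0.16, adjusted p = 0.00314, limma), Ndufs7 (-0.52 ± 0.11, 0.00222), Ndufs8 (-0.45 ± 0.10, 0.00222), Ndufv1 (-0.44 ± 0.11, 0.00852), Cox5b (-0.33 ± 0.08, 0.00829) and Atp5f1d (-0.36 ± 0.12, 0.036). Between 14 and 15 of the 16 exposed rats lay below the control mean for each of these. Atp5f1d, the delta subunit in the central stalk of ATP synthase, was the single called gene of complex V, with levels of 9.58 to 10.08 (median 9.79) in controls, 9 to 9.92 (median 9.52) in minimal and 8.8 to 9.81 (median 9.47) in extreme response. Its call ended on leaving out any of 9 single arrays, among them male controls 1, 4, 5 and 8 (highest adjusted p = 0.087, limma).

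Higher in exposed males were Sdhd (0.56 ± 0.15, adjusted p = 0.0139, limma), Uqcrfs1 (0.49 ± 0.12, 0.0052) and Ndufb3 (0.23 ± 0.08, 0.0479). The Ndufb3 call ended on leaving out any of 28 of the 46 arrays. Cox4i1 did not pass (-0.19 ± 0.09, adjusted p = 0.153, limma). Nor did the alpha and beta subunits of ATP synthase, Atp5f1a (0.20 ± 0.10, adjusted p = 0.214, limma) and Atp5f1b (0.09 ± 0.09, adjusted p = 0.585, limma), or its stalk protein Atp5po (-0.15 ± 0.07, adjusted p = 0.191, limma). Under 75th-percentile scaling, or with all 47 arrays, 0 of the 9 calls remained, with every sign kept for the genes named. Calls over all probes fell from 1055 to 167 and 119 under these settings. Without male control 2 all 9 remained.

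Of 70 tested probes in 5 lists of related pathways, 6 were higher and 6 lower in exposed males (8.57% each), against 6.23% and 4.97% of all probes. No list is therefore singled out, and the called genes are given as values. Of 18 tested genes for other electron carriers and assembly factors, Cycs, which encodes cytochrome c, was higher (0.50 ± 0.14, adjusted p = 0.0165, limma) and the complex I assembly factor Ecsit was lower (-0.29 ± 0.10, adjusted p = 0.0451, limma). Of 14 regulators of mitochondrial biogenesis, Yy1 (0.43 ± 0.14, adjusted p = 0.0351, limma) and the mitochondrial termination factor Mterf1 (0.45 ± 0.12, adjusted p = 0.0082, limma) were higher. The mitochondrial DNA helicase Twnk (-0.52 ± 0.16, adjusted p = 0.0316, limma) and Nrf1, the gene of the NRF-1 factor (-0.37 ± 0.13, adjusted p = 0.0499, limma), were lower in the same list. Of 7 carriers and porins, the adenine nucleotide carrier Slc25a5 was higher (0.40 ± 0.11, adjusted p = 0.0154, limma).

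Of 15 genes of the tricarboxylic acid cycle and pyruvate dehydrogenase, Sucla2 was higher (0.62 ± 0.16) and Idh3g lower (-0.32 ± 0.09), with adjusted p = 0.00783 and 0.0188 (limma). Of 16 probes for glycolysis genes, that of Ldha was higher (0.48 ± 0.15, adjusted p = 0.031, limma). The probe of Pfkm and a probe of Aldoa, both genes abundant in muscle, were lower (-0.49 ± 0.14 and -0.44 ± 0.15, adjusted p = 0.017 and 0.0479, limma). The Aldoa probes disagreed, since another tested Aldoa probe was not called. The median differences of these 5 lists were 0.09, 0.11, 0.1, -0.03 and -0.14, against -0.01 over all probes.

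In females, exposed rats differed from controls in 4 of 61 genes, 1 higher and 3 lower. All probes were called higher in 4.27% and lower in 2.09%, against 1.64% and 4.92% of the set, and the median difference of the set was -0.04. That median turned to 0.3 under 75th-percentile scaling and to 0.5 with all 47 arrays, while the median of all probes became 0.03 and 0.11, so no direction is given for the set in females.

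Cox5a, a matrix-facing subunit of cytochrome c oxidase, was the higher gene. Its levels in female controls 1, 3, 4, 5, 6 and 7 were 9.68, 9.77, 9.8, 10.48, 11.16 and 11.14, against 10.9 to 11.72 (median 11.2) in minimal and 10.72 to 11.18 (median 10.86) in extreme response. Controls 1, 3, 4 and 5, the arrays low in platelet markers and high in immediate early genes, lay below every exposed female, and controls 6 and 7 lay within the exposed range. The difference was 0.70 ± 0.16 (adjusted p = 0.00234, limma) with all 6 controls and -0.11 ± 0.19 (adjusted p = 0.994, limma) without those 4.

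Cox7b was lower by -0.62 ± 0.18 (adjusted p = 0.0217, limma), with control levels of 12.26, 12.56, 12.67, 12.01, 12.11 and 11.89 in the same order and 10.81 to 12.33 and 11.05 to 12.02 in minimal and extreme response. The accessory subunit Ndufa6 was lower by -0.60 ± 0.15 (adjusted p = 0.00772, limma), with control levels of 8.7, 8.38, 7.82, 8.09, 7.35 and 7.83 and an exposed range of 6.94 to 8.05. The control range of Ndufa6 thus reached from above every exposed rat to the middle of the exposed values. Ndufaf6, a complex I assembly factor, was lower by -0.54 ± 0.15 (adjusted p = 0.0179, limma) at levels near background, with detection in 5 of 6 controls, 3 of 8 rats of minimal and 1 of 8 of extreme response.

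Without the 4 female controls no gene of the set was called, and 1 of all 9416 probes was. The differences were then -0.38 ± 0.28 for Cox7b, -0.16 ± 0.22 for Ndufa6 and -0.33 ± 0.21 for Ndufaf6 (adjusted p = 0.994 each, limma). Leaving out female control 1 or 3 alone left 2 calls. Beside these genes, the porin Vdac3 (0.71 ± 0.13, adjusted p = 0.000177, limma) was higher in exposed females with all 6 controls. So were 4 of 16 glycolysis probes, those of Gapdh (1.15 ± 0.17), Eno1 (0.61 ± 0.18), Ldhb (0.48 ± 0.15) and Tpi1 (0.44 ± 0.12). These made 5 of the 70 pathway probes (7.14%), against 4.27% of all probes. Called were 0 of the 18 other electron carriers and assembly factors, 0 of 14 regulators and 0 of 15 genes of the tricarboxylic acid cycle.

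By response class, females of minimal response had 1 called gene, Cox5a (0.86 ± 0.18, adjusted p = 0.000777, limma), where 3.96% of all probes were higher and 1.23% lower. Cox7b had -0.63 ± 0.20 (adjusted p = 0.0553, limma) and the accessory subunit Ndufb2 -0.38 ± 0.12 (adjusted p = 0.0571, limma); they passed on leaving out 8 and 5 of the single arrays, and the count ran from 1 to 5, the highest without female minimal 4. Females of extreme response had 0 higher and 2 lower genes, Ndufa6 (-0.71 ± 0.17, adjusted p = 0.00641, limma) and Ndufaf6 (-0.57 ± 0.17, adjusted p = 0.0352, limma), while Cox7b had -0.62 ± 0.20 (adjusted p = 0.0561, limma), where 3.28% of all probes were higher and 2.08% lower. Their count was 1 without female control 1 or 3 or female extreme 2 or 7, 4 without female control 6 and 6 without female control 7. Neither class had a called gene of the set without the 4 controls. The markers had differences in exposed females of 0.07 ± 0.09 for Cox5b (adjusted p = 0.758, limma; 95% interval -0.12 to 0.26) and 0.10 ± 0.10 for Cox4i1 (adjusted p = 0.59, limma).

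Extreme and minimal response in females, which share no array with the controls, gave 0 called genes of the set and 0.34% of all probes (32). An unadjusted p below 0.05 was reached by 5 of the 61 genes (8.2%) and by 12.3% of all probes. The smallest p belonged to Atp5pd, a stalk subunit of ATP synthase, with 9.01 to 9.67 (median 9.25) in extreme and 8.56 to 9.46 (median 8.93) in minimal response and a difference of 0.32 ± 0.12 (adjusted p = 0.249, limma). Cox5b had a difference of 0.24 ± 0.10 (adjusted p = 0.289, limma) and the assembly factor Ndufaf5 one of 0.39 ± 0.17 (adjusted p = 0.344, limma).

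**Figure D4:**
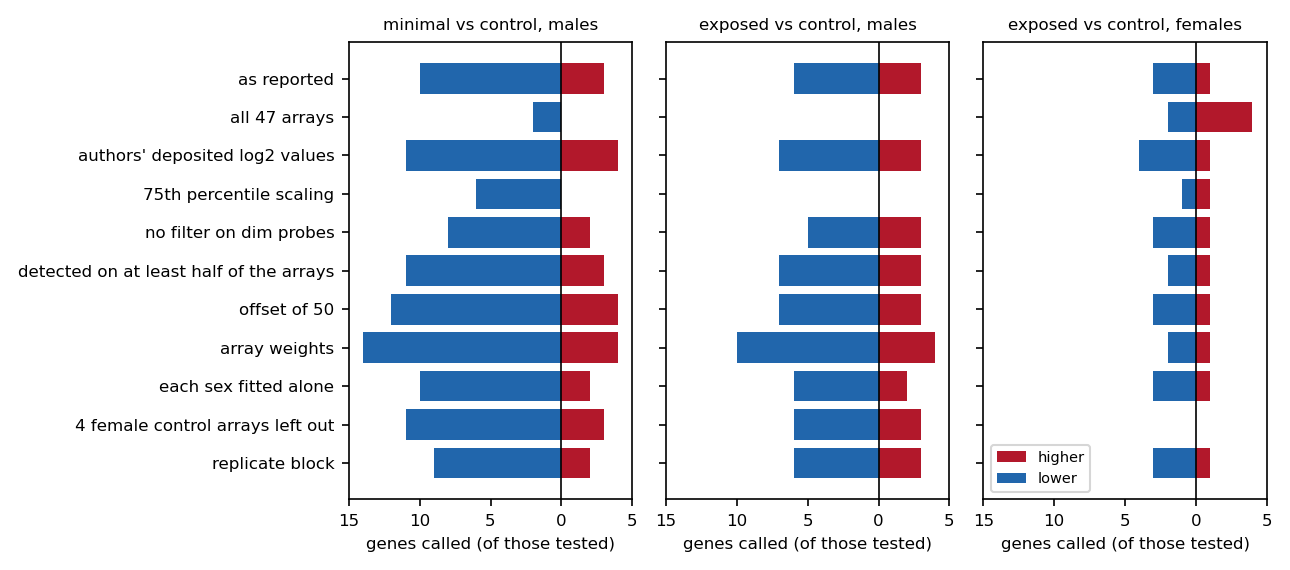
Number of the tested genes called higher (red, to the right) and lower (blue, to the left) in 3 comparisons, as reported and under 10 alternative settings. The male counts fall to 2 and 0 with all 47 arrays and to 6 and 0 with 75th-percentile scaling. The female count falls to 0 without 4 of the control arrays. Calls over all probes, not drawn, also fell under these settings.

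The difference between the sexes was tested directly as the male minus the female log2 difference. For exposed against control rats, 8 of 61 genes were called, 3 higher and 5 lower, where all probes were higher in 5.6% and lower in 5.79%. Ndufb7 had the widest, -1.18 ± 0.24 (adjusted p = 0.00128, limma), with female levels of 6.58 to 7.34 in controls and 6.79 to 8.04 in exposed rats against 7.26 to 8.69 and 6.37 to 7.92 in males. Uqcrfs1 had 0.66 ± 0.17 (adjusted p = 0.00905, limma) and Sdha 0.50 ± 0.15 (adjusted p = 0.0186, limma). Also higher was the membrane anchor Sdhc (0.41 ± 0.14, adjusted p = 0.0455, limma), whose sign turned under 75th-percentile scaling (-0.06) and with all 47 arrays (-0.28). Lower were also Cox5b (-0.40 ± 0.13, adjusted p = 0.0316, limma), Ndufs8 (-0.47 ± 0.14, 0.0249), Ndufs7 (-0.49 ± 0.16, 0.0437) and Cox5a (-0.72 ± 0.21, 0.0217), the last with 0.09 ± 0.22 without the 4 female controls. Leaving out single arrays ended the call of Sdhc in 23 of 46 omissions, of Ndufs7 in 18, of Cox5a in 3, of Cox5b and Ndufs8 in 2 each and of Sdha in 1, and never that of Ndufb7 or Uqcrfs1. The count was 3 without female control 1, 5 without female control 3 and 0 without the 4 female controls, where Ndufb7 still had -0.92 ± 0.33 (adjusted p = 0.327, limma) and Uqcrfs1 0.62 ± 0.24 (adjusted p = 0.354, limma), with 0 calls among all probes.

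For minimal response against controls the sexes differed in 8 genes as well, 3 higher and 5 lower, where all probes were higher in 5.1% and lower in 5.63%. Ndufb7 again had the widest, -1.38 ± 0.27 (adjusted p = 0.0012, limma), followed by Uqcrfs1 at 0.80 ± 0.20 (adjusted p = 0.00635, limma). Cox4i1 had -0.45 ± 0.15 (adjusted p = 0.039, limma), a call that ended in 18 of 46 single-array omissions. For extreme response, 1 gene was lower, Ndufb7 (-0.98 ± 0.27, adjusted p = 0.0296, limma), where 2.36% of all probes were higher and 2.5% lower, and its call ended on leaving out any of 7 single arrays (female controls 3, 4 and 5, male control 2 and male extreme 5, 6 and 7). Cox5a (-0.69 ± 0.24) and Sdhd (0.74 ± 0.26) did not pass (adjusted p = 0.0939 each, limma). For extreme against minimal response 0 genes were called, with 0.0319% of all probes, and an unadjusted p below 0.05 was reached by 4 of the 61 genes and 8.15% of all probes; the smallest p values were those of Ndufa6 (0.60 ± 0.22), Cox7b (0.61 ± 0.26) and Cox4i1 (0.31 ± 0.14), with adjusted p = 0.427, 0.519 and 0.562 (limma). Without female control 1 or 3 the count for minimal response was 5, and without all 4 of the female controls that stood apart it was 0.

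The spread between rats of a group was smaller for these genes than for the probes at large. The median SD of the 61 genes within a group was 0.2 to 0.23 log2 units over the 6 groups, where the median over all tested probes was 0.26 to 0.31. The comparison was not matched for intensity or detection. Of the 61 genes 52 were detected on every array, while a tested probe needed detection on only 7. The gene of widest spread, named after its values were seen, was Cox6a2 in male controls (SD 1.15), where control 2 was at 7.89 and the next at 5.22. In males of extreme response it was Uqcrb, a complex III subunit (SD 0.99), where extreme 6 was at 7.09 and the other 7 rats at 9.58 to 10.16. It was Cox5a in female controls (0.69), Atp5mc1 in females of minimal response (0.77), Ndufa5 in females of extreme response (0.75) and Cox7b in males of minimal response (0.54). As means over the genes of a complex, each gene centred on its mean over arrays, complex I ran from -0.08 to 0.18 in male controls, -0.2 to -0.02 in minimal and -0.17 to 0.08 in extreme response. Complex IV ran from -0.15 to 0.25, -0.34 to -0.04 and -0.17 to 0.16 in the same groups, and complex II from -0.29 to 0.17, -0.21 to 0.27 and -0.4 to 0.35. The complex IV value of 0.25 was that of male control 2, and its mean includes the muscle isoform Cox6a2, at 7.89 on that array. Complex III ran from -0.23 to 0.1, -0.21 to 0.09 and -0.63 to 0.15, the value of -0.63 being that of male extreme 6. The ranges of the male groups overlapped in every complex.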

How the data were processed

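Whole-blood RNA of 47 samples was measured on 1-colour Illumina rat arrays. The authors deposited non-normalized intensity values with a detection p-value for each probe and array, per the file headers; the scanner software is not given in the sources used here. A deposited table of log2 values equals quantile-normalized log2 intensities of 46 arrays without background correction (largest difference 5e-09).

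Here the intensities were background corrected (normexp of limma 3.58.1 in R 4.3.3, its background set from the deposited detection p-values, offset 16), quantile normalized over 46 arrays and put on the log2 scale. Female control 2, whose array held no signal, was left out. A group-means model was fitted with lmFit and eBayes to 9416 probes detected on at least 7 arrays, with 40 residual degrees of freedom, 12 contrasts and two-sided p-values adjusted by Benjamini-Hochberg. The number of arrays limits the precision, and 5921 to 8770 probes were detected per array. Gene symbols are those of the platform annotation (13793 probes with 1 symbol, 8730 with none); all 71 genes matched a RefSeq symbol.

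The genes and lists were chosen with earlier results of these data known. Named are Cox5b, Cox4i1 and core subunits of each complex, and in each comparison up to 6 called genes per direction, or the 3 of smallest p where fewer than 3 were called. Alternatives covered the scaling, the background offset, the detection filter, array weights, each sex alone, a replicate block, 4 female controls left out and each array left out in turn. The fit was tested on simulated data.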

Additional observations from a re-analysis of the deposited data

Results flagged for a closer look

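In 32 named genes, 192 sets of values (a gene in a group) were checked for an array whose gap to its nearest neighbour, relative to the group's range, passed Dixon's 95% value, and 17 did, where chance gives about 1 in 20, or 9.6. In female controls these were Cox4i1 in control 4 (12.35, next 12), Ndufs7 in control 1 (8.47, next 9.06), Ndufs1 in control 1 (7.23, next 6.4) and Ndufa5 in control 6 (5.48, next 6.14). In exposed females they were Cox5a in minimal 8 (11.72) and extreme 2 (11.18), Ndufv1 in minimal 7 (7.65), Atp5f1d in extreme 5 (10.06) and Ndufs1 in extreme 1 (5.35). In males they were Cox5b in control 8 (10.51), Uqcrc1 in control 4 (8.89), Ndufb3 in minimal 4 (8.03), Ndufs1 in extreme 6 (4.5, next 6.08), Uqcrb in extreme 6 (7.09, next 9.58) and Cox6a2 in control 2 (7.89), minimal 7 (5.35) and extreme 1 (5.48).

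The effect of exposure differed between the sexes by its own test (male minus female log2 difference, adjusted p below 0.05) for Ndufb7 (-1.18), Ndufs7 (-0.49), Ndufs8 (-0.47), Sdha (0.5), Sdhc (0.41), Uqcrfs1 (0.66), Cox5a (-0.72) and Cox5b (-0.4). The effect of minimal response differed for Ndufb7 (-1.38), Ndufs7 (-0.62), Ndufs8 (-0.58), Sdha (0.66), Sdhc (0.49), Uqcrfs1 (0.8), Cox4i1 (-0.45) and Cox5a (-0.76), and that of extreme response for Ndufb7 (-0.98). None of these 17 passed without the 4 female controls that stood apart in platelet and immediate early genes, and sex and cohort cannot be told apart.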

How the results depend on the processing

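Counts of called genes of the set are given here for settings that moved them by over 1.5 times. With all 47 arrays the count went from 9 to 0 in exposed males, from 13 to 2 in males of minimal response, from 1 to 3 in females of minimal response and from 8 to 2 in both sex differences (exposed, minimal). With 75th-percentile scaling it went from 4 to 2 in exposed females, from 9 to 0 in exposed males, from 1 to 4 in females of minimal response, from 13 to 6 in males of minimal response, from 2 to 1 in females of extreme response, from 8 to 4 and 15 (all lower) in the sex differences of exposed and minimal response (all probes of the latter went from 480 higher and 530 lower to 102 and 921), and from 1 to 0 in that of extreme response. All 47 arrays moved the median of all probes to 0.11 to 0.12 in the comparisons of females with their controls. Without the 4 female controls every female comparison with controls and every sex difference of one gave 0, and extreme against minimal response in males gave 1. Array weights gave 14 in exposed males, 3 in females of minimal response, 1 in females and 1 in males of extreme response, 5 in the sex difference of exposed and 0 in that of extreme response. The deposited log2 values gave 3 in females of minimal response and 1 for extreme against minimal response in males, and an offset of 50 gave 2 and 1. Testing all probes gave 1 in females of extreme response and 0 in its sex difference, detection on at least 23 arrays gave 2 in females of minimal response, and each sex alone gave 1 in females of extreme response. Over all probes, calls of exposed males went from 587 higher and 468 lower to 115 and 52 with 75th-percentile scaling, and calls of exposed females from 402 and 197 to 514 and 48 with that scaling and to 575 and 108 with all 47 arrays. The causes were not tested.

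Leaving out single arrays gave these ranges of calls, with those over all probes in parentheses. Exposed females had 2 to 6 (409 to 803) and exposed males 7 to 10 (793 to 1373). Minimal response had 1 to 5 in females (352 to 671) and 10 to 15 in males (1089 to 1553). Extreme response had 1 to 6 in females (344 to 694) and 0 to 4 in males (0 to 302). Extreme against minimal response had 0 to 0 in females (7 to 69) and 0 to 3 in males (0 to 92). The sex differences of exposed and minimal response had 3 to 11 (740 to 1290) and 5 to 10 (761 to 1238). Those of extreme response and of extreme against minimal response had 0 to 5 (228 to 688) and 0 to 0 (1 to 8). Among named genes, single settings turned the sign of Cox5a in exposed females (-0.11) and in its sex differences (0.09, 0.06 and 0.13) without the 4 controls; of Ndufb2 and Cox5b in females of minimal response (0.28 and 0.36 with all 47 arrays, 0.07 and 0.48 with 75th-percentile scaling); of Sdhc in the sex differences (-0.28 and -0.21 with all 47, -0.06 and -0.17 with scaling); and of Cox4i1 in males of extreme response (-0.05 with array weights) and between female classes (-0.05 with scaling). Leaving out single arrays moved Cox4i1 in males of extreme response from -0.04 to 0.06, and Cox5b in the sex difference of extreme against minimal response from -0.04 to 0.06; neither was called.

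Arrays at the same position in the sample order of different groups did not deviate together (110 pairs, correlation -0.53 to 0.40, median -0.02). That position is the order of samples within a group, not the rat number of the labels. Male control 1 and male minimal 1 share both the position and a label number, and theirs was the lowest correlation, -0.53. Whether the other samples that share a label number deviate together was not tested. With the position as a replicate block the count was 4 in the sex difference of exposed rats (Ndufb7, Sdha, Uqcrfs1 and Cox5a). It was 6 in that of minimal response (without Cox4i1, Ndufs7 and Sdhc) and 0 in that of extreme response. Females of extreme response had 1, and the count moved by under 1.5 times elsewhere.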
